A study of Mus musculus with 10 samples.

Results

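The first megabases of mouse chromosome 14 hold a large cluster of duplicated genes, most of them relatives of takusan, and 79 of its genes had enough reads in testis RNA-seq to be described here. A gene was taken as a member if its start on chromosome 14 of mm10 lay below 7.7 Mb and if it had at least 10 reads summed over 6 RNA-seq libraries. Of the 178 genes in that window, of any biotype, 79 met the read minimum, out of 26358 genes that met it in the whole genome. The members were thus chosen by position and by read sums over both genotypes, and the genotype differences of Gm10406, Gm3029, Gm26886 and Gm26680 were known when the cluster was proposed, so the differences between genotypes are given as a description.

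The libraries came from whole testes at postnatal day 21 (P21), with 3 from wild type (Mov10+/+) mice and 3 from Mov10-/- mice. In Mov10-/- mice a floxed part of the gene for the RNA helicase MOV10 had been deleted in all tissues by Cre recombinase under the Actb promoter. The mice were on a mixed background of several inbred strains, and the labels do not say which strain each mouse carried on chromosome 14. 4 further libraries held RNA bound to MOV10 in wild type P21 testes (CLIP-seq). Nothing in the labels says whether the replicates of a genotype were littermates, and p-values therefore measure the spread between these samples only.

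Takusan genes encode small proteins known from neurons, where some of them bind the synaptic scaffold PSD-95. They share a domain with DLG5, a scaffold of the MAGUK family, whose members hold receptors and adhesion proteins at cell junctions. The family is expanded in the mouse, and the copies are so alike that a short read often matches several of them.

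The likeness of the members was measured on their GENCODE transcripts. By blastn match of the longest transcript, the members fell into 4 families. The takusan-like family, with a match to 2610042L04Rik (takusan itself), had 62 members, with 89.6% to 98.5% identity to it. 9 members were noncoding RNAs related to Gm26680, with at least 99.1% identity over about 2 kb of transcript. 6 members were related to Gm10251, and each lay head to head with a Gm26680 relative. The other 2 were pseudogenes of Esd, which encodes esterase D. The median member had 99.2% identity to its closest relative in the window, and 78 of 79 had a relative with 95% identity or more. A median of 12.3% of the 50-base words of a member occurred in no other gene, with a range of 0% to 52.4%, and 5 members (Gm17222, Gm10410, Gm26552, Gm26893 and Gm3344) had no word of their own. Reads placed equally well in several positions had been left out of the deposited counts. A member's count is thus a count of the reads that its distinguishing bases could place. The words were taken from annotated transcripts only, and the 5 members with none of their own still had reads.

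The promoters of the Gm26680 family are shown first, because Gm26680 and Gm26630, whose promoter letters are the same, separated the genotypes in opposite directions. 4933406F09Rik and Gm26893, whose libraries overlapped, are shown for comparison. The lines hold the stretch from the first base past the start of the head-to-head gene Gm10251, or the matching base of the other copies, to a little inside the noncoding RNA. They are from RefSeq promoter windows on GRCm38.p6, at chr14:6684171-6684275 (plus strand) for Gm26680, chr14:6351960-6352064 (plus) for Gm26630, chr14:7412376-7412480 (plus) for 4933406F09Rik and chr14:5574322-5574426 (minus) for Gm26893. The capital marks the single position at which the copies differed.
Gm26680: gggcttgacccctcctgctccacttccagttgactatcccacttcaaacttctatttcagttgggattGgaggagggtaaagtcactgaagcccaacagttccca
Gm26630: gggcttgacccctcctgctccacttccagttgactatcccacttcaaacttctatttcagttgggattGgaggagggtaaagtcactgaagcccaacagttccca
4933406F09Rik: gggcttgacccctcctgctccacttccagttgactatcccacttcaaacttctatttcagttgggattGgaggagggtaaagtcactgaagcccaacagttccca
Gm26893: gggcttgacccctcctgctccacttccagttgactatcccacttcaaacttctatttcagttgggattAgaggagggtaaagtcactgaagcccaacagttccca
Over their whole 300-base windows Gm26680 and Gm26630 did not differ at any base, and neither did Gm26893 and Gm26552. 4933406F09Rik differed from Gm26680 at 1 of 258 aligned positions, Gm26893 at 2 and Gm26650 at 3. The capital lies in the letters ATTGG, the reverse of the CCAAT box, which Gm26680, Gm26630, 4933406F09Rik and Gm26650 held once in these 105 bases on the minus orientation, and which Gm26893 and Gm26552 did not hold in either orientation. Of all 32851 promoters in the table, 14.8% held CCAAT in either orientation in a stretch of that length. Such a match describes letters only.

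In the takusan-like family the same contrast was found between coding sequences. Gm10406, the member with many more reads in Mov10-/- testes, is shown with its relatives Gm3739, whose libraries overlapped, and Gm3468, which had no read in any Mov10-/- library. The 180 bases begin at the first base of the Gm10406 coding sequence of GENCODE M21 and at base 34 of the other 2, with capitals where the 3 genes differed.
Gm10406: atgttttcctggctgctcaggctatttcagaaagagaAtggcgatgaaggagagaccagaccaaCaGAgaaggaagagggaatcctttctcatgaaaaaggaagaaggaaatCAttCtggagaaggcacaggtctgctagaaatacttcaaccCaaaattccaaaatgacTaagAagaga
Gm3739: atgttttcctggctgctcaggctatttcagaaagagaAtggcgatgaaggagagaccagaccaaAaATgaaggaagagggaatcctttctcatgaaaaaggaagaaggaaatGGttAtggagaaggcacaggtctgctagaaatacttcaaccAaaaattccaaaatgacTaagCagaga
Gm3468: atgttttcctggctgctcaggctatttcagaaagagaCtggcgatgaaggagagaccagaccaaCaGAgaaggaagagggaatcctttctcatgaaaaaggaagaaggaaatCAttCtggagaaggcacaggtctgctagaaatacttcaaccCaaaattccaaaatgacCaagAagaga
Over the 618 coding bases of Gm10406, Gm3468 differed at 3 positions and Gm3739 at 9.

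Depth was 5083407 to 9230540 reads on genes per RNA-seq library, so that 1 read stood for 0.108 to 0.197 CPM (counts scaled to the library size). The members took 0.00842% to 0.0273% of these reads, and their sums over the 6 libraries ranged from 10 to 889 reads with a median of 50. Wild type replicate 2 stood apart from the other wild type libraries over all genes (chi-square per degree of freedom of 16.1 and 18.8, against 5.79 between the other 2), and 57.2% of the reads of Mov10-/- replicate 3 were not aligned, against 26.5% to 35.9% in the other libraries. Mov10 itself was read at 113.6, 96.4 and 119.2 CPM in the wild type libraries and at 29.0, 26.6 and 26.7 CPM in the Mov10-/- libraries, which matches the labels.

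Summed over all members, the cluster was read at 166.1, 283.1 and 162.5 CPM in wild type replicates 1, 2 and 3, and at 81.6, 129.3 and 116.0 CPM in Mov10-/- replicates 2, 3 and 4. Every Mov10-/- library lay below every wild type library, with means of 109.0 ± 24.6 and 203.9 ± 68.6 CPM (SD, n = 3 each). In 41 of the 79 members every Mov10-/- library was lower than every wild type library, beside 14.7% of all genes with at least 10 reads. In 7 members every Mov10-/- library was higher, beside 10.4% of all such genes. The libraries of the other 31 members overlapped. With 3 libraries against 3, a single value cannot go below p = 0.10 in an exact two-sided permutation test.

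In edgeR's quasi-likelihood test, 40 members were above 1 CPM in at least 3 of 6 libraries and were tested among 20240 genes, and 39 were not. Of the 40, 9 were above 1 CPM in wild type libraries only (Gm26886, Gm3029, Gm26680, Gm3642, Gm3164, Gm8356, Gm3460, Gm3636 and Gm3696). Gm10406 and Gm26630 were the 2 above it in Mov10-/- libraries only. These members were tested only through the genotype where they were higher, so their p-values add no independent support. Gm2888, Gm8362, Gm8297, Gm5797, Gm17188, 1700110I01Rik and Gm3760 were above 1 CPM in 3 wild type and only 1 or 2 Mov10-/- libraries. They too met the filter only with their wild type libraries, where they were higher, and the same limit holds for them. None of the 40 passed a fold change over 2 with an adjusted p under 0.05, a rule that 0.00494% of all tested genes passed (a single gene, Mov10). The lowest adjusted p among the members was 0.0587 by edgeR with Benjamini-Hochberg adjustment, for Gm26886 and Gm10406. At an unadjusted p under 0.05, 19 members were lower in Mov10-/- testes beside 11.9% of all tested genes, and 2 were higher beside 5.57%. The 19 include all 9 members above 1 CPM in wild type libraries only, and the 2 are Gm10406 and Gm26630. edgeR's exact test, an alternative, called 14 members lower beside 5.09% of all tested genes, and 2 higher beside 0.346%. The 14 include those 9 members except Gm3164 and Gm3696, and the 2 are again Gm10406 and Gm26630. The filter thus helped to set these counts, and they are no independent support. The median log2 fold change (Mov10-/- minus wild type) was -1.07 over the 40 tested members and 0.03 over all tested genes. Over all 79 members, fitted with every gene of at least 10 reads, it was -1.46, also with the 8 members that had no read in a genotype placed at their bounds. Without wild type replicate 2 the first median was -0.30 over the 26 members that then passed 1 CPM in at least 3 libraries, and the second was -1.11 over all 79; the count of members higher in every Mov10-/- library became 12, as it did without Mov10-/- replicate 2, and 41 were lower in both cases. Leaving out a library can only keep or raise such a count, so these counts do not measure stability. Their share over all genes was not computed.

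**Figure D1:**
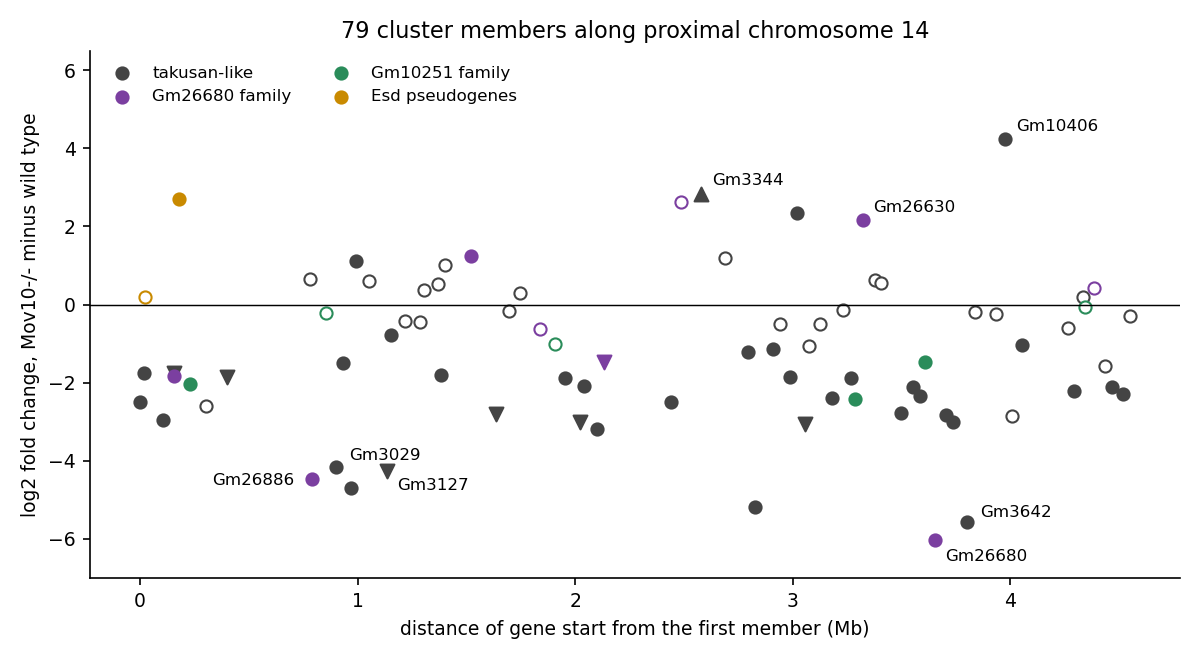
Log2 fold change (Mov10-/- minus wild type, from the fit on genes with at least 10 reads) of the 79 members against the distance of their start from the first member, in Mb. Filled points are members whose genotypes did not overlap, open points are members whose genotypes did, and triangles stand at the bound of the 8 members with no read in a genotype. Gm10406 stands at 4.24 in the last Mb, while most filled points lie below 0 along the whole cluster.

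Marker lists of testis cell types were read in the same libraries. A list of 20 spermatid markers summed to 988, 1958 and 787 CPM in wild type replicates 1, 2 and 3 and to 502, 935 and 621 CPM in Mov10-/- replicates 2, 3 and 4. Of the 18 listed genes tested, 14 had an unadjusted p under 0.05 and were lower in Mov10-/- testes, none passed adjustment, and the median log2 fold change was -2.10. In 10 of the 18 every Mov10-/- library was lower, beside 14.1% of all tested genes. None of the 20 was at 0. The summed levels overlapped, since Mov10-/- replicate 3 lay above wild type replicate 3. Wild type replicate 2 was the highest of the 3 wild type libraries for this list and for 35 of the 41 members that were lower in every Mov10-/- library, while it was the highest for 41.3% of all genes with at least 10 reads. The part of spermatid number in the cluster's values was not tested, and in whole testis fewer cells of a type and less RNA per cell cannot be told apart. Of 15 spermatocyte markers none had libraries that did not overlap, with a median of 0.02, and the medians of the spermatogonia (12 genes), Sertoli (11 tested), Leydig (8), peritubular and endothelial (9) and macrophage (9) lists were 0.24, 0.31, 0.24, 0.29 and 0.27. In 5 of the 11 Sertoli and 5 of the 9 peritubular and endothelial genes every Mov10-/- library was higher, as in 2 of the 12 spermatogonia genes and none of the Leydig and macrophage genes, beside 11.9% of all tested genes. At an unadjusted p under 0.05, 6 Sertoli, 2 peritubular and endothelial and 1 spermatogonia genes were higher, and none passed adjustment.

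The 62 takusan-like members carried most of the reads. Their sum was 104.6, 199.4 and 100.6 CPM in wild type replicates 1, 2 and 3 and 44.7, 77.1 and 65.1 CPM in Mov10-/- replicates 2, 3 and 4, a ratio of means of 0.462. 34 of them were lower in every Mov10-/- library, 4 were higher and 24 overlapped, beside 14.7% lower and 10.4% higher of all genes with at least 10 reads, the background for each family and strand count given here. Plus-strand copies, which start between 3030002 and 5131519, and minus-strand copies, which start between 5469438 and 7580617, had 16 of 27 and 18 of 35 members lower in every Mov10-/- library.

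Several of these members were near 0 in Mov10-/- testes. Gm3029 (chr14:3931756-3940185, plus strand) had 20, 20 and 33 reads in the wild type libraries and 1 read in each Mov10-/- library. After scaling, that was 20.4 times more in wild type testes (95% counting interval 6.70 to 101), with a log2 fold change of -4.18 ± 0.48 (SE). Its wild type libraries differed little from each other, at 2.35, 2.73 and 3.53 CPM, and replicate 2 was not the highest of them.

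Gm3642 had 12, 42 and 18 reads in wild type replicates 1, 2 and 3 and 0, 0 and 1 in Mov10-/- replicates 2, 3 and 4, a ratio of 60.3 (95% counting interval 10.5 to 2415), or 35.4 (5.89 to 1446) without wild type replicate 2. That replicate held the most reads, and Gm3642 had the largest SD of log2(CPM + 0.5) within wild type among the tested members, at 0.90. Gm8362 had 46, 93 and 52 reads in wild type and 3, 5 and 12 in Mov10-/- testes, with a log2 fold change of -3.02 ± 0.59 and an adjusted p of 0.150 by edgeR. Its groups did not overlap.

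7 members had no read in any Mov10-/- library, 6 of them takusan-like. Gm3127 (chr14:4165030-4173503, plus) had 8, 40 and 21 reads in wild type replicates 1, 2 and 3. After scaling, their sum was 19.3 times the limit of 3 reads over the 3 Mov10-/- libraries. This bound and those below take the wild type sum as exact. They leave out its counting error and the spread between libraries. Gm3468 (chr14:6087295-6108665, minus), whose coding sequence is shown above, had 4, 15 and 11 reads in wild type, 8.38 times the same limit. In both, wild type replicate 2 held the most reads, and without it the bounds were 11.4 and 5.91. The bounds of the other takusan-like members were 8.10 for 4930555G01Rik, 6.98 for Gm3239, 3.63 for Gm3005 and 3.35 for Gm5795, with 12 to 29 wild type reads each. Without wild type replicate 2 these were 6.30, 4.33, 2.36 and 2.76. Among all genes with at least 10 reads, 1.42% had no read in the Mov10-/- libraries. Gm3468 shares 293 exon bases on the same strand with Gm8206, and htseq-count by default gives reads there to neither.

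Gm10406 (chr14:7006115-7027449, minus) differed in the other direction. It had 2, 1 and 1 reads in wild type replicates 1, 2 and 3 and 25, 17 and 26 in Mov10-/- replicates 2, 3 and 4. In CPM the Mov10-/- libraries were at 3.09, 3.48 and 3.19 and the wild type libraries at 0.234, 0.136 and 0.107, with a log2 fold change of 4.22 ± 0.44. On the log2(CPM + 0.5) scale its SD was 0.14 over the wild type and 0.08 over the Mov10-/- libraries. The wild type values lie below the added 0.5 CPM, which keeps their SD small whatever their spread. Gm3739, its closest relative by match of the longest transcript, overlapped, at 26, 42 and 27 reads in wild type and 17, 15 and 20 in Mov10-/- testes. Over the coding bases Gm3468 was closer, and it had no read in any Mov10-/- library.

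Gm3344, an unprocessed pseudogene, had no read in wild type libraries and 4, 6 and 8 reads in Mov10-/- replicates 2, 3 and 4. After scaling, their sum, taken as exact, was 7.16 times the limit of 3 reads over the 3 wild type libraries. It has no 50-base word of its own, with 100% identity to Gm3526 over 603 bases. Gm5796 and Gm6337 were the other takusan-like members that were higher in every Mov10-/- library, with 7, 7 and 9 reads against 5, 4 and 4, and 3, 6 and 4 against 3, 0 and 0.

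2610042L04Rik (chr14:4334763-4354688, plus), which carries the name takusan, had 22, 17 and 5 reads in the wild type libraries and 13, 16 and 17 in the Mov10-/- libraries. Its groups overlapped, with a log2 fold change of 0.34 ± 0.59, and its wild type libraries varied more than those of most members, with an SD of 0.87. Among the members with the most reads, Gm21103 had 103, 158 and 115 reads in wild type and 22, 29 and 31 in Mov10-/- testes. Its libraries did not overlap, at a log2 fold change of -1.90 ± 0.40 and an adjusted p of 0.150 by edgeR. Gm3453 had 41, 78 and 48 against 24, 31 and 42 reads, and its CPM overlapped (4.81, 10.6 and 5.13 against 2.96, 6.34 and 5.16).

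**Figure D2:**
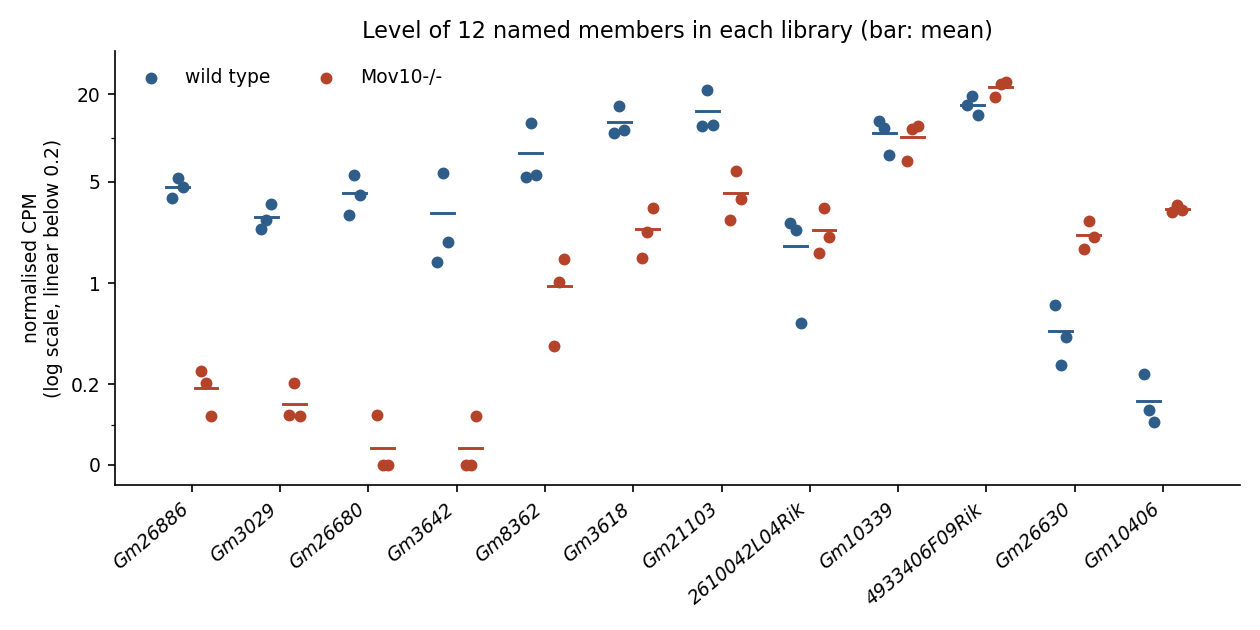
Normalised CPM of 12 members in each of the 3 wild type (blue) and 3 Mov10-/- (red) libraries, on an axis that is logarithmic above 0.2 and linear below; bars are means. The 2 colours do not overlap in 9 of the 12, while 2610042L04Rik, Gm10339 and 4933406F09Rik overlap, and Gm26630 and Gm10406 are the members with the Mov10-/- libraries on top.

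The Gm26680 family of noncoding RNAs gave overlapping sums in the 2 genotypes, and the overlap rested on its most read copy, 4933406F09Rik. The 9 copies summed to 27.3, 38.6 and 29.7 CPM in wild type replicates 1, 2 and 3 and to 23.2, 31.5 and 29.4 CPM in Mov10-/- replicates 2, 3 and 4. The ratio of means was 0.879. Without 4933406F09Rik the other 8 copies summed to 10.4, 19.2 and 15.4 CPM in wild type and to 3.95, 7.98 and 5.04 CPM in Mov10-/- testes, which did not overlap, with a ratio of 0.377. Of the 9 copies, 4 were lower in every Mov10-/- library (14.7% of all genes), 2 were higher (10.4%) and 3 overlapped.

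Gm26680 (chr14:6684255-6783942, plus) had 25, 41 and 38 reads in the wild type libraries and 1, 0 and 0 in Mov10-/- replicates 2, 3 and 4. The ratio was 87.1 (95% counting interval 15.3 to 3473), or 74.4 (12.9 to 2985) without wild type replicate 2. Gm26886 (chr14:3822531-3884087, minus) had 33, 39 and 43 reads in wild type and 2, 1 and 1 in Mov10-/- testes, with a log2 fold change of -4.48 ± 0.45. Both were close to absent from all 3 Mov10-/- libraries. In the wild type libraries Gm26886 was at 3.87, 5.32 and 4.60 CPM. Gm26680 varied more, at 2.93, 5.59 and 4.06 CPM, and wild type replicate 2 was the highest in both.

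Gm26630 (chr14:6352044-6446960, plus) went the other way, with 6, 2 and 4 reads in wild type and 14, 13 and 17 in Mov10-/- testes. Its log2 fold change was 2.14 ± 0.45, with an adjusted p of 0.150 by edgeR, and its libraries did not overlap. Its longest transcript has 100% identity to that of Gm26680 over 2078 bases and its promoter letters are the same. No base of these stretches tells the copies apart, and which bases placed the reads was not examined. 19.5% of the 50-base words of Gm26630 and 11.6% of those of Gm26680 occur in no other gene.

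Gm26552 and Gm26893 are alike over 2079 bases with no 50-base word of their own, and neither was above the filter of the test. Gm26552 had 3, 1 and 6 reads in wild type and none in Mov10-/- testes. After scaling, the wild type sum, taken as exact, was 2.79 times the limit of 3 reads over the Mov10-/- libraries. Gm26893 had 0, 3 and 0 reads in wild type and 3, 6 and 8 in Mov10-/- testes. Its groups overlapped, and the counts of both are uncertain for want of distinguishing sequence. Gm26655, the other copy that was higher in every Mov10-/- library, had 3, 3 and 4 reads in Mov10-/- against 1, 2 and 2 in wild type testes. Gm17188 had 9, 7 and 5 reads in Mov10-/- against 15, 44 and 34 in wild type testes, with no overlap.

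4933406F09Rik (chr14:7412460-7508369, plus) had the most reads of all members, with 144, 142 and 134 in wild type and 156, 115 and 198 in Mov10-/- testes. Its CPM was 16.9, 19.4 and 14.3 against 19.3, 23.5 and 24.3, and the lowest Mov10-/- library lay just below the highest wild type library. The log2 fold change was 0.41 ± 0.21, with an adjusted p of 0.369 by edgeR. Gm26650 varied most within Mov10-/- testes, with 0, 9 and 6 reads and an SD of 1.12, against 6, 9 and 17 reads in wild type.

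The Gm10251 family gave 33.8, 45.0 and 31.0 CPM in wild type replicates 1, 2 and 3 and 12.1, 18.6 and 20.3 CPM in Mov10-/- replicates 2, 3 and 4, a ratio of means of 0.465. 3 of its 6 members were lower in every Mov10-/- library (14.7% of all genes) and 3 overlapped. Gm3618 had the largest difference, with 92, 123 and 106 reads in wild type and 12, 11 and 27 in Mov10-/- testes, a log2 fold change of -2.45 ± 0.39 and an adjusted p of 0.150 by edgeR. Per kb of annotated exon it also had the highest level of all members, at 19.9 CPM per kb over the 6 libraries, on a gene model of 384 bases.

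6 copies of the Gm26680 family face a Gm10251 relative, and in 3 of these pairs the starts are 84 bases apart. At Gm26886 and Gm2916, Gm26886 was at 4.59 and 0.191 CPM in wild type and Mov10-/- testes, while Gm2916 was at 0.558 and 0.464 CPM and overlapped, with 3, 5 and 6 against 1, 2 and 7 reads. At Gm26680 and Gm10251, both were lower in every Mov10-/- library, from 4.19 to 0.0412 CPM and from 6.45 to 2.30 CPM. Gm10251 had 49, 59 and 52 reads in wild type and 20, 12 and 16 in Mov10-/- testes, so reads were left on its side where Gm26680 was close to absent.

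The other pairs also differed from each other. At 4933406F09Rik and Gm10339, neither gene separated the genotypes, and Gm10339 had 111, 86 and 72 reads in wild type and 56, 56 and 99 in Mov10-/- testes, with a log2 fold change of -0.09 ± 0.33. At Gm17188 and 1700110I01Rik, 22 bases apart, both were lower, and 1700110I01Rik had 22, 43 and 48 against 6, 7 and 9 reads. Gm26630 and Gm3618 start 8365 bases apart, and the first was higher and the second lower in every Mov10-/- library. Gm26650 and Gm10410, 8464 bases apart, both overlapped.

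**Figure D3:**
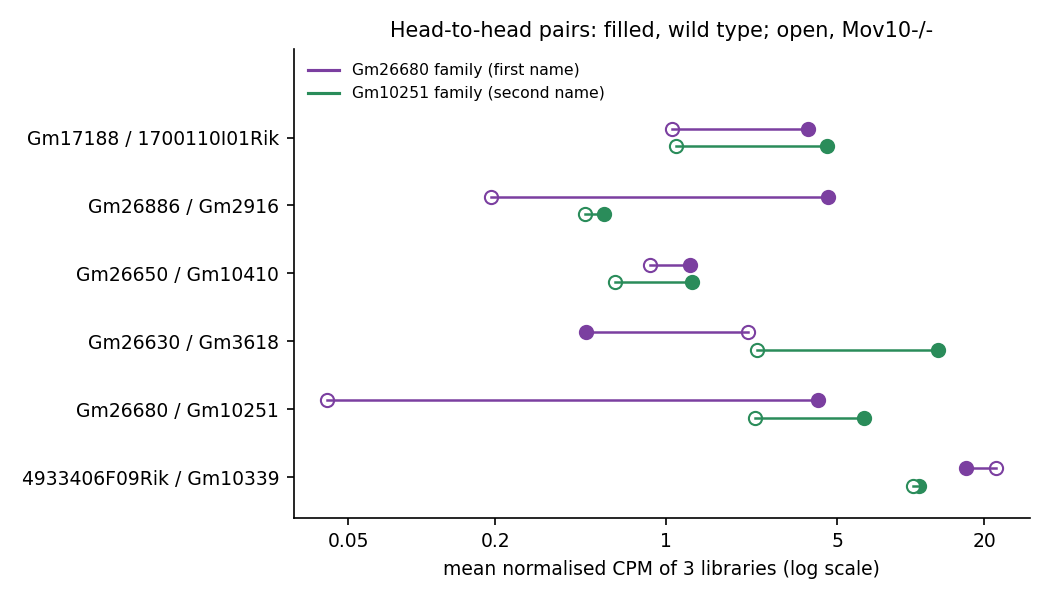
Mean normalised CPM (log scale, n = 3 libraries) of the 6 head-to-head pairs, with wild type as filled and Mov10-/- as open circles; purple is the Gm26680 relative and green the Gm10251 relative. Gm26680 spans 4.19 to 0.0412 CPM, Gm26630 is the pair member whose open circle lies clearly to the right, and both members of the last pair lie close together.

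The Esd pseudogenes were read at 0.469, 0.136 and 1.18 CPM together in wild type and at 1.61, 2.05 and 1.23 CPM in Mov10-/- testes. Gm17222 had 0, 1 and 3 reads against 8, 8 and 6, and was higher in every Mov10-/- library, but it has no 50-base word of its own and 100% identity to Gm17121. Esd-ps overlapped, with 4, 0 and 8 against 5, 2 and 4 reads.

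**Figure D4:**
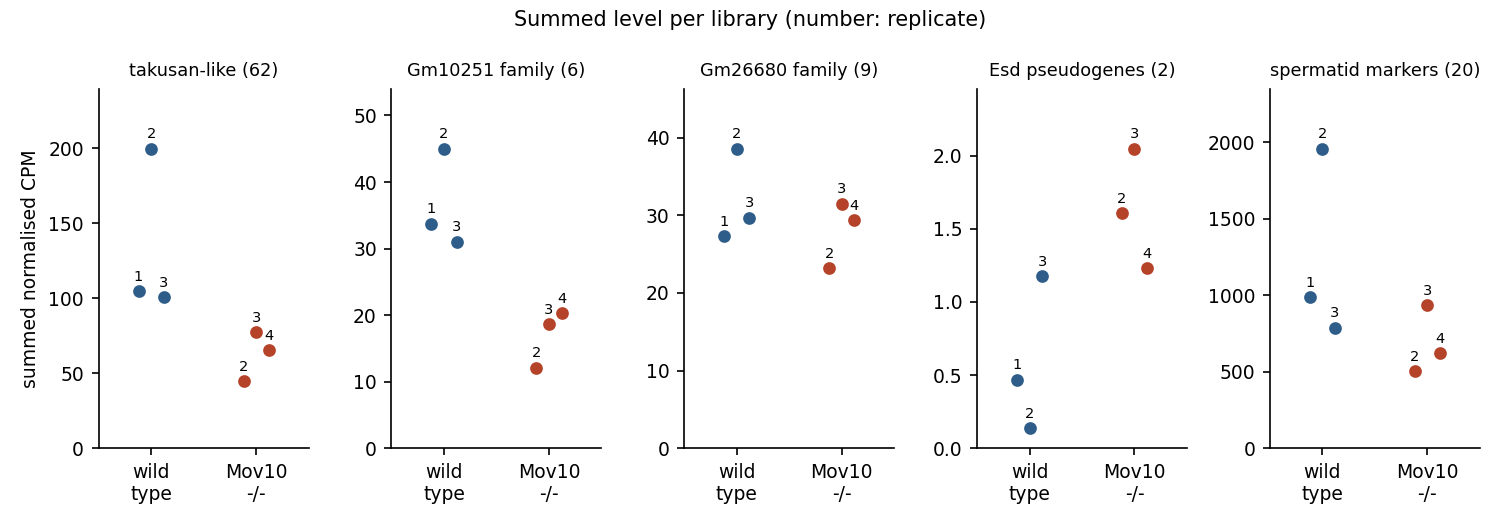
Summed normalised CPM of each family (number of genes in brackets) and of 20 spermatid markers in every library, with the replicate number above each point and all axes from 0. The takusan-like and Gm10251 sums separate the genotypes, the Gm26680 sums overlap (through 4933406F09Rik), the spermatid sums overlap too, and wild type replicate 2 is the highest point in the takusan-like (199.4 CPM), Gm10251, Gm26680 and spermatid panels.

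Spread within a genotype was compared with genes of like mean level over all 6 libraries. Members near 0 in Mov10-/- testes were thus not matched within a genotype. The added 0.5 CPM also keeps their SD low there, as at 0.18 for Gm26680 with 1, 0 and 0 reads. The median SD of log2(CPM + 0.5) was 0.47 over wild type and 0.42 over Mov10-/- libraries for the 40 tested members, against 0.44 and 0.37 for the 2981 tested genes with a mean of 1.31 to 3.56 CPM, the middle range of the members. The largest SDs within Mov10-/- after Gm26650 were 0.90 for Gm3752 (3, 6 and 0 reads) and 0.89 for Gm3760 (4, 14 and 14 reads), and after Gm3642 and 2610042L04Rik the largest within wild type was 0.87 for Gm3591 (2, 14 and 6 reads).

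The limits of the cluster were set by position and reads. The last members were Gm3558, with 9, 16 and 6 against 1, 2 and 2 reads, and Gm10338, with 45, 29 and 19 against 13, 21 and 26. The first genes past 7.7 Mb with enough reads were Gm10044 (503, 375 and 423 against 314, 319 and 482 reads) and Gm26661 (195, 227 and 257 against 160, 157 and 197), and both overlapped. At the read minimum, Gm2956 and Gm26552 were in with 10 reads, and Gm3298, Gm3500 and Gm3194 were out with 9. Gm2956 had 1, 6 and 2 reads in wild type against 0, 0 and 1 in Mov10-/- testes. Gm3298 had 3, 5 and 1 reads in wild type and Gm3500 had 1, 4 and 4, both with none in Mov10-/- testes, and Gm3194 had 1, 0 and 1 against 2, 0 and 5.

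Beyond the cluster, 2 of the 16 genes with enough reads that start between 7.7 and 8.5 Mb were lower in every Mov10-/- library and none was higher. Gm45521 had 44, 84 and 31 reads in wild type and 5, 8 and 9 in Mov10-/- testes. Its log2 fold change was -2.59 ± 0.59, with an adjusted p of 0.150 by edgeR. The other, 2610318M16Rik, had a log2 fold change of -0.59 ± 0.31. Over the rest of chromosome 14 the counts were 231 lower and 69 higher of 1046 genes, or 22.1% and 6.6%. Over all genes with at least 10 reads the shares were 14.7% and 10.4%. Further relatives of the members start between 19496370 and 19612403 of the same chromosome. Gm5458, 98.4% identical to Gm3029 over 984 bases, had 84, 102 and 64 reads in wild type and 19, 30 and 38 in Mov10-/- testes, with a log2 fold change of -1.23 ± 0.44 and an adjusted p of 0.215 by edgeR. Gm2237 had 19, 34 and 26 against 20, 26 and 33 reads and overlapped. Gm48105, which has 100% identity to Gm26630 over 2078 bases, had 3, 5 and 1 against 1, 0 and 2 reads.

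Dlg5, the MAGUK gene that shares a domain with takusan, lies outside the cluster and its libraries overlapped, at 59.2, 45.9 and 60.5 CPM in wild type and 69.7, 60.1 and 57.1 CPM in Mov10-/- testes. Of 22 genes of the MAGUK scaffold list, all tested, none passed the test. In 3 every Mov10-/- library was lower and in 6 higher, beside 14.1% and 11.9% of all tested genes, and the genes of the list had a median of 0.09 for the log2 fold change.

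No CLIP-seq read was counted on any member, or on any of the 178 genes of the window, among 15710 reads on genes in 4 libraries. The libraries held 3404 to 4934 reads on genes each, so that a count of 0 allows up to 608 to 881 CPM for a member in a library, counting error only. CLIP-seq replicates 1, 2 and 3 varied less than counting alone would give (0.219 to 0.237 by the same chi-square measure) and count as 1 sample beside replicate 5. For 4933406F09Rik, the member with the highest wild type level (16.9 CPM), this limit allows a CLIP-seq level of up to 36.1 to 52.3 times its RNA-seq level, and for the others more. In the CLIP-seq libraries 99.48% to 99.57% of all reads were not aligned. Of the placed CLIP-seq reads, 41.1% to 44.4% had no unique position and were not counted.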

How the data were processed

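Each of the 6 RNA-seq and 4 CLIP-seq libraries came as a table of unnormalised read counts for Ensembl genes, as deposited by the authors. For RNA-seq they used a stranded poly(A) kit, STAR on mm10 and htseq-count; the strand setting is not given in the sources used here. Reads with several equal placements (9.50% to 10.3% of placed RNA-seq reads) were not counted. Gene names, positions and transcripts were taken from GENCODE M21, not the authors' version, and 55154 of 55421 genes matched.

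Counts were scaled by TMM and tested with edgeR 4.0.16 (quasi-likelihood, Benjamini-Hochberg) on genes above 1 CPM in at least 3 of 6 libraries; SE is the fold change over the root of F. The test was tested on simulated data. Alternatives were other scalings, filters and tests (DESeq2 1.42.0, limma 3.58.1), a replicate block and each replicate left out. Likeness was computed with blastn 2.17.0 and mafft 7.526. Promoters are RefSeq's; 48 members had a symbol match. Named genes were the 4 given by the choice of cluster, those with the smallest p per direction, the highest CPM, no reads in a genotype or the largest SD, and genes at the limits; others illustrate a count and were chosen after their values were seen. The members and all lists were chosen with earlier results of these data known.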

Additional observations from a re-analysis of the deposited data

How the results depend on the processing

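None of the 40 tested members was called by the quasi-likelihood test, and the count was 0 too with RLE scaling, with a minimum of 10 reads, with limma voom, and in the fits that left out a replicate (0 to 0, also with the minimum of 10 reads). Other settings gave 2 members without a scaling factor (1 lower, Gm26886, and 1 higher, Gm10406), 2 without a filter beyond 1 read, 11 by DESeq2, 16 by edgeR's exact test and 18 by the likelihood ratio test, against 1039, 1101 and 1187 calls among all genes by those 3 tests, and the quasi-likelihood test had 3542 genes at an unadjusted p under 0.05. The fit with the replicate number as a block called 5 members (Gm10406, Gm26680, Gm26886, Gm3029 and Gm3642) and 181 genes in all. These 5, which include both members called without a scaling factor, passed the filter only through the genotype where they were higher. All 5 are also among the members called by DESeq2, the exact test and the likelihood ratio test. Only numbers 2 and 3 occur in both genotypes, and same-numbered libraries deviated apart (r of -0.46 and -0.34 across genes), so the number was not taken as a pairing.
The median log2 fold change was -1.46 with a minimum of 10 reads, -1.50 without a filter beyond 1 read, -1.64 for starts below 7.0 Mb and -0.60 for starts below 8.5 Mb, which adds genes outside the cluster. Leaving out a replicate gave -1.52 (without Mov10-/- replicate 3) to -0.30 (without wild type replicate 2), over 26 to 37 members that passed the filter. With the minimum of 10 reads, a set of fits added after seeing the data, it gave -1.54 (without wild type replicate 1), -1.53 (without wild type replicate 3) and, at the smallest, -1.11 (without wild type replicate 2), over all 79. Over the 54 members with at least 10% of their words in no other gene, also added later, it was -0.71 (32 tested), and the genotypes of 33 did not overlap. The count of members whose genotypes did not overlap was 48, 51 to 53 without a replicate, and 58 without both wild type replicate 2 and Mov10-/- replicate 3, added later. It was 24 of the 41 members with at least 50 reads. The share over all genes was not computed for any of these smaller sets of libraries or members. The counts with fewer libraries can only stay or rise, so they cannot be read as a result. For 28 named members, 217 values kept direction and side of the threshold, 36 passed it where the reported one did not, and 3 changed sign, in genes near 0 that passed no test. Gm10339 ranged from -0.29 to 0.13 and 2610042L04Rik from -0.12 to 0.68 as each replicate was left out. The sum of the Gm26680 family without 4933406F09Rik and the folds without wild type replicate 2 were also computed after seeing the data. The causes were not tested. At 10 to 889 reads per member, differences of a few reads decide the values of the lowest members.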
